A study of Drosophila melanogaster with 2 samples.

Results

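The cytoplasmic ribosomal protein genes of Drosophila melanogaster were taken as the 92 protein-coding genes whose symbol starts with RpL, RpS or RpLP in the Ensembl annotation, out of 13968 protein-coding genes on the chromosome arms. For each gene, peaks of the zinc finger transcription factor Ham (hamlet) were collected where the summit lay within 500 bp of any annotated start site of the gene, here called a promoter summit. The choice used symbols and positions only. The peaks came from 2 biological replicates of a single group, the strain ham-GFP, which carries an insertion aimed at the ham gene and makes a Ham fusion with eGFP. Whole embryos of 0 to 24 hours were used, the chromatin was sonicated to between 200 and 800 bp, and the tag was pulled down with an antibody against GFP. No untagged, mutant or staged embryos were analysed here, so no conditions were compared, and the embryos mix all cell types and stages. The labels do not say in which cells the fusion protein was made.

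The cytoplasmic ribosome has a small (40S) and a large (60S) subunit, and each is built from ribosomal RNA and a fixed set of proteins that are needed in about equal amounts. Most of these genes are among the most active in any cell, and flies with a single working copy of many of them show the Minute phenotype of slow growth and short bristles. In flies, ribosomal protein promoters are known for the TCT initiator, a pyrimidine-rich start site that takes the place of the usual initiator, and for start-proximal elements bound by the factors DREF and M1BP. Ham is best known from work on external sensory organs, where it helps set the fate of neurons.

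The first set of sequences lies just upstream of the start sites. It shows the summits of the 4 highest peaks that lay in sequence outside annotated exons and off the second chromosome. Each is on dm6 (RefSeq Release 6), read 5′ to 3′ on the strand of the gene and limited to bases within 75 bp of the summit that are in no annotated exon. Capitals mark the 9 bases centred on the summit.
RpL34b, 3R from 9401246 to 9401396 on the minus strand: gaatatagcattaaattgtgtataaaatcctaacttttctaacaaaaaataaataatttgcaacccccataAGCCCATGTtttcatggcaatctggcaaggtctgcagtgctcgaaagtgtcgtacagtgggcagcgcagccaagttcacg
RpS27, 3R from 25247515 to 25247601 on the minus strand: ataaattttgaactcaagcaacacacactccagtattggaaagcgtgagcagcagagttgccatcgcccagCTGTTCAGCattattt
RpL23A, 3L from 1668670 to 1668820 on the minus strand: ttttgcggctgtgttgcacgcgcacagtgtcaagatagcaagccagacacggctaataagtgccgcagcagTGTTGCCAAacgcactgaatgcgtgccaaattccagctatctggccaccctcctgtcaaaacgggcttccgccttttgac
RpL32, 3R from 30046185 to 30046335 on the minus strand: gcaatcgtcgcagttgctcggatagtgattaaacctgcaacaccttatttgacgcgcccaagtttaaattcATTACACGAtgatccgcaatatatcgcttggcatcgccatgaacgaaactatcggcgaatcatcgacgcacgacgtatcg

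A second set shows 3 members whose sequence within 50 bp of the summit holds TATCGATA, the DNA replication-related element bound by DREF, and RpL7, the member with the highest peak, which holds the M1BP core GGTCACACT in reverse complement. Capitals mark these words.
RpS10b, X from 19597915 to 19598030 on the plus strand: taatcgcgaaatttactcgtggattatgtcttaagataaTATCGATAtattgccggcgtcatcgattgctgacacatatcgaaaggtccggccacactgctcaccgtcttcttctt
RpS25, 3R from 11216288 to 11216411 on the minus strand: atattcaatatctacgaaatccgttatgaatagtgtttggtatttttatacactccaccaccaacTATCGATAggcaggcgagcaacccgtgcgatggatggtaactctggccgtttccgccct
RpS12, 3L from 13023253 to 13023351 on the plus strand: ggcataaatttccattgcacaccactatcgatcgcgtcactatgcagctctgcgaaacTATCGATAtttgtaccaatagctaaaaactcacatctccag
RpL7, 2L from 10200975 to 10201003 on the plus strand: cccactccgcggccAGTGTGACCgtttgg

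A further set shows the start sites of 5 members that have both a peak and CTTT at the start. The windows are 30 bases long, from 15 bases before the start. Capitals mark CTTT, searched as the core of the TCT initiator and found in 14 of the 31 members with a peak.
RpL14, 3L from 8600991 to 8601020 on the plus strand: ctgtcaaaaaagttCTTTccttctctttct
RpL8, 3L from 2587441 to 2587470 on the plus strand: aggatgtcttcctCTTTtcttttcttttcg
RpL24, 2L from 13395078 to 13395107 on the minus strand: gtttccacttccgttttCTTTtcttttcgt
RpS21, 2L from 2856096 to 2856125 on the plus strand: acgtccagctgtcatttCTTTctctttttc
RpL13, 2L from 9967315 to 9967344 on the plus strand: agttggttgcgatttcCTTTttaattcgtt

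Of the 92 ribosomal protein genes, 31 (33.7%) had a promoter summit in the pooled thresholded list, against 6.59% of all 13968 protein-coding genes. This list holds the 1495 peaks that passed the authors' threshold after candidate regions had been ranked by their reproducibility, and each has a score of at least 830 out of 1000. In the authors' shorter conservative list the count was 21 members (22.8%, against 4.17% of all genes), and all 21 were among the 31. Replicate 1's own thresholded list held 9 members (9.78%, against 2.69%), and these were again among the 31. Replicate 2's own list held 30 members (32.6%, against 5.70%), of which 28 were among the 31. The other two were RpL31 and RpS14b. With 1 group there was no test over samples, and genes are not replicates, so the shares are a description.

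**Figure D1:**
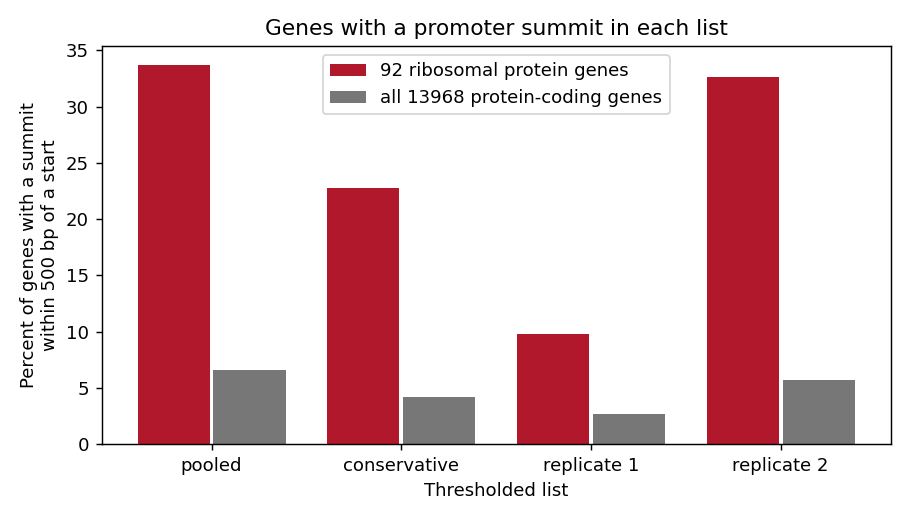
Percent of genes with a summit within 500 bp of a start site (vertical axis) in the pooled, conservative, replicate 1 and replicate 2 thresholded lists (horizontal axis), for the 92 ribosomal protein genes (red) and all 13968 protein-coding genes (grey). Members stand at 33.7%, 22.8%, 9.78% and 32.6%, against 6.59%, 4.17%, 2.69% and 5.70% of all genes.

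Both subunits were represented. Among the 50 genes with RpL symbols other than those of the stalk, which include RpL7-like and RpL24-like, 18 (36.0%) had a pooled thresholded promoter summit, among the 38 with RpS symbols 12 (31.6%) did, and of the genes of the acidic stalk, the arm of the large subunit that recruits elongation factors, RpLP0 had one while RpLP1 and RpLP2 had none. RpLP0-like, which the symbol rule also takes in, had none. The members lay on 6 chromosome arms. The count was 7 of 14 on 3L (against 7.78% of all genes there), and the share was 36.8% on 2L (7 of 19, against 7.15%), 30.4% on 3R (7 of 23, against 6.90%), 28.6% on 2R (6 of 21, against 5.75%) and 28.6% on X (4 of 14, against 5.37%). Chromosome 4 holds RpS3A as its one member and had no promoter summit at any gene.

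The height of a peak is given by its signal value, which is the authors' own number with no stated unit, and nothing states that the replicates share a scale. Over the 31 members the highest promoter peak ran from 56.7 to 322, with a median of 105. The other 658 promoter peaks ran from 2.04 to 1000 with a median of 103, so the medians were close and no ribosomal protein gene stood at the top of the list. The best rank was 60 of 1495, and 23 of the 31 stood at or above the median of the whole list, which was 91.7. So did 394 of the other 658, where every peak of a gene counts and not only the highest.

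The highest peak was at a large subunit gene. RpL7 reached 322 in the pooled list (2L, 10200953 to 10201103), with 93.7 in replicate 1 and 214 in replicate 2, and its summit lay inside an annotated exon. RpL34b reached 254 (3R, 9401238 to 9401321), with 61.6 in replicate 1 and 194 in replicate 2. RpL23A, whose protein sits at the exit of the peptide tunnel, reached 212 (3L, 1668577 to 1668912), with 61.3 in replicate 1 and 145 in replicate 2. These are among the sequences printed above, and in all 3 genes replicate 2 was the higher. RpL41, which encodes a very short peptide of the large subunit, reached 201 (2R, 24903853 to 24904188), with 56.4 in replicate 1 and 135 in replicate 2. RpL32, long used under the name rp49 as a reference gene in fly expression studies, reached 194 (3R, 30046092 to 30046427), with 61.3 in replicate 1 and 135 in replicate 2. RpL14 reached 164 (3L, 8600788 to 8601123), with 42.1 in replicate 1 and 125 in replicate 2. These 6 genes were among the large subunit genes whose peak overlapped a thresholded peak in each replicate.

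The large subunit genes that follow had no thresholded peak in replicate 1, where their candidate regions reached at most 32.2. RpL30, whose yeast counterpart binds its own transcript, had 158 in the pooled list, with 21.3 in replicate 1 and 130 in replicate 2. RpL19 had 132, with 21.6 in replicate 1 and 107 in replicate 2. RpL8, which lies close to the peptidyl transferase centre, had 109, with 24.7 in replicate 1 and 98.3 in replicate 2. In these 3 genes, too, replicate 2 was the higher. RpL24 had 103, with 29.0 in replicate 1 and 73.7 in replicate 2. RpL22 had 98.4, with 27.7 in replicate 1 and 81.2 in replicate 2. RpL28 had 93.4, with no candidate region at the summit in replicate 1 and 59.2 in replicate 2. The next values lay below the list's median. RpL23 had 82.9, with 32.1 in replicate 1 and 69.1 in replicate 2. RpL34a, the second copy of the RpL34 family, had 82.7, with 20.6 in replicate 1 and 59.5 in replicate 2. RpL37A had 70.8, with 32.2 in replicate 1 and no candidate region at the summit in replicate 2, so it was the only one of the 31 with a candidate region at the summit in replicate 1 alone. RpL27A had 63.5, with 15.2 in replicate 1 and 55.5 in replicate 2. RpL13 had the lowest value, 56.7, with 14.3 in replicate 1 and 34.1 in replicate 2. RpLP0, the base of the stalk, had 105, with 27.6 in replicate 1 and 70.8 in replicate 2.

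Small subunit genes ran up to 248. RpS27 had that value in the pooled list (3R, 25247463 to 25247571), with 44.9 in replicate 1 and 201 in replicate 2. RpS28b, whose protein lies near the exit of the mRNA channel, reached 178 (X, 9554543 to 9554627), with 53.4 in replicate 1 and 126 in replicate 2. These were the only small subunit genes with a thresholded peak in both replicates. RpS21 had 125, with 36.2 in replicate 1 and 83.2 in replicate 2. RpS10b also had 125, with no candidate region at the summit in replicate 1 and 102 in replicate 2. RpS7 had 113, with 24.6 in replicate 1 and 87.8 in replicate 2. A group of 4 genes lay close together around a pooled value of 100. RpS16 had 101.5, with 26.3 in replicate 1 and 71.3 in replicate 2. RpS19a had 99.5, with no candidate region at the summit in replicate 1 and 68.2 in replicate 2. RpS25 had 97.4, with 27.9 in replicate 1 and 79.1 in replicate 2, and RpS4, with 96.0, had 40.4 in replicate 1 and 60.9 in replicate 2. The last 3 lay below the list's median of 91.7. RpS20 had 79.2, with 30.6 in replicate 1 and 46.1 in replicate 2. RpS23, a protein of the decoding centre, had 73.3, with 10.7 in replicate 1 and 62.0 in replicate 2, and RpS12 had 69.0, with 28.9 in replicate 1 and 62.2 in replicate 2.

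**Figure D2:**
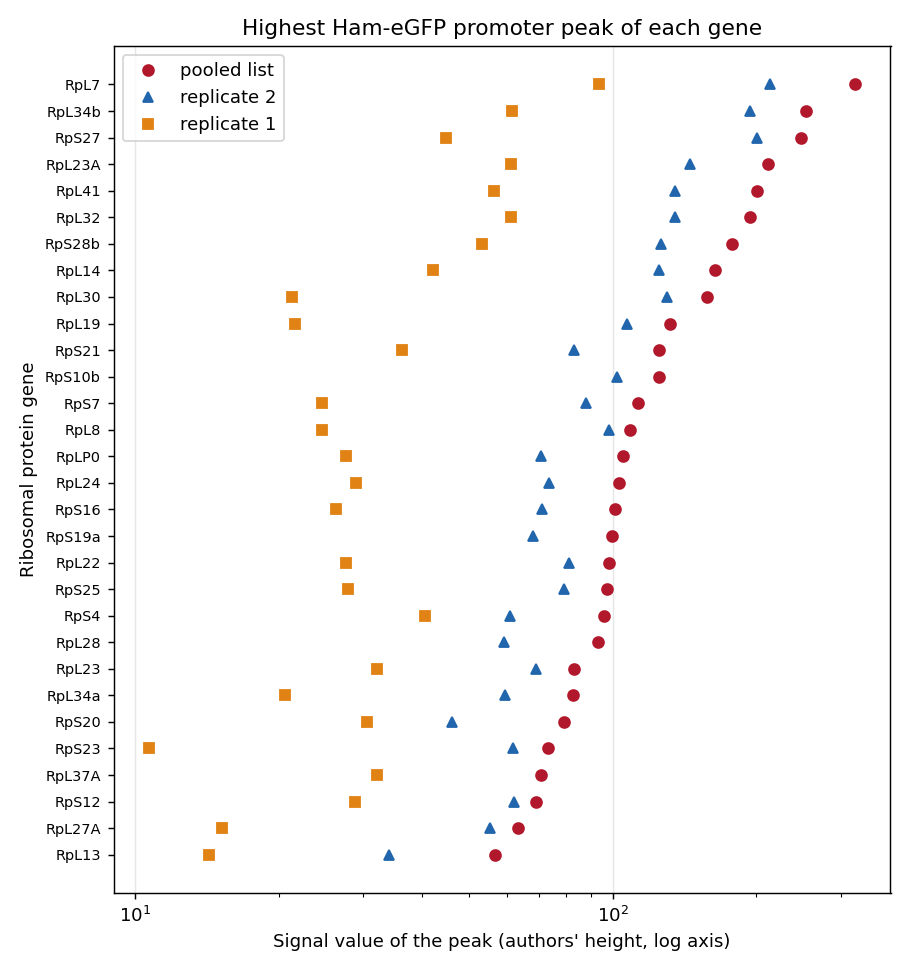
Signal value of the highest promoter peak of 30 of the 31 ribosomal protein genes (horizontal log axis) in the pooled list (circles) and of the candidate region at the same summit in replicate 2 (triangles) and replicate 1 (squares). Values run from 322 at RpL7 to 56.7 at RpL13, and every gene with both replicates is higher in replicate 2.

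Most of the member peaks were listed in replicate 2 and not in replicate 1. Of the highest peaks of the 31 members, 9 (29.0%) overlapped thresholded peaks of both replicates, and a further 19 (61.3%) did so for replicate 2 only. The remaining 3 (9.68%), at RpS20, RpL37A and RpL13, overlapped none of either, and no member peak was listed in replicate 1 alone. Among the other 658 promoter peaks, 222 (33.7%) were listed in both replicates, 274 (41.6%) in replicate 2 only, 21 (3.19%) in replicate 1 only and 141 (21.4%) in neither. Replicate 1's list is also the shorter, with 516 peaks against 1050. In the 27 members with a candidate region at the summit in both replicates the value of replicate 2 was the higher in all 27, with a median ratio of 2.57. A second count took the highest promoter candidate region of each gene in each replicate, passed or not. The region was chosen in each replicate separately, so the 2 values of a gene can come from different places. At RpL24 the summits were at 477 bp in replicate 1 and -5 bp in replicate 2. There replicate 2 was the higher in 51 of 55 members, with a median ratio of 2.46. Among 7574 other protein-coding genes it was the higher in 6716, with a median ratio of 1.92. Over the 27 peaks the heights in the replicates had a Spearman's rho of 0.639 and, as log2 values, a Pearson's r of 0.718. In the second count these were 0.712 and 0.703 over the 55 members, against 0.412 and 0.571 over the 7574 genes. These describe peaks that share the same 2 libraries, and the 7574 genes include low candidate regions. Library depth is unknown.

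In some genes a lower peak stood beside the higher one. RpS23 had one of 30.2 at -223 bp from the start and RpL24 one of 6.69 at -257 bp, where a negative distance is upstream. Each partly overlapped the higher peak of the same gene. The nearest thresholded summits beyond the 500 bp window were 799 bp from RpS28b (95.2) and 914 bp from RpL34b (77.8), both genes that already had a promoter peak.

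The summits lay close to the start sites. Of the highest peaks of the 31 members, 29 (93.5%) lay within 100 bp of a start, from -179 to 31 bp with a median of -36. Upstream of the start lay 25 (80.6%). With the lower peaks included, 29 of all 34 member peaks (85.3%) lay within 100 bp, with a median of -39 bp. Of the other 658 promoter peaks, where every peak of a gene counts, 231 (35.1%) lay within 100 bp of the nearest protein-coding start. Their median was -107 bp, and 529 (80.4%) lay upstream, so the share upstream was close to that of the members. RpS4 had its summit on the start site itself, RpS23 at -2, RpL19 at 3, RpLP0 at 4 and RpL13 at 7 bp. RpL7 had the farthest downstream summit, at 31 bp. RpS20 had the farthest upstream summit, at -179 bp. No test was made of the difference in distance, because peaks are not replicates.

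**Figure D3:**
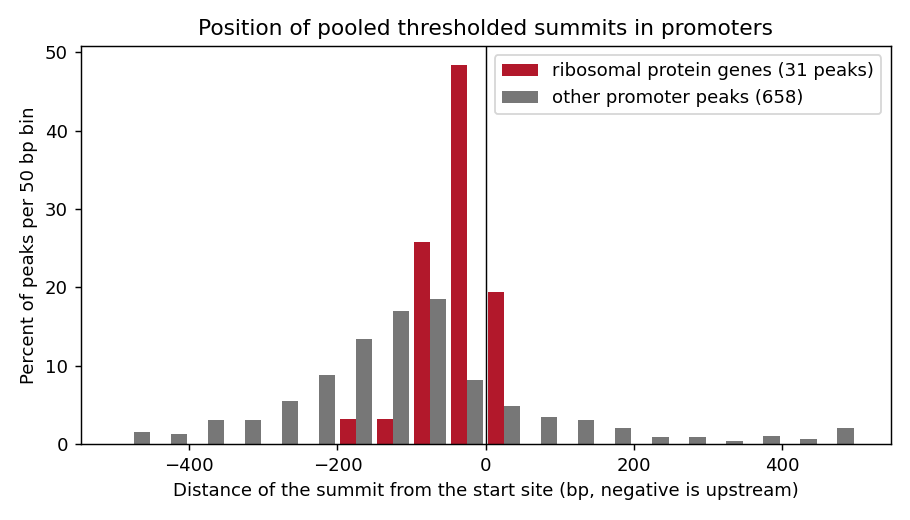
Percent of peaks (vertical axis) by distance of the summit from the start site in bins of 50 bp (horizontal axis, negative is upstream), for the highest peak of the 31 ribosomal protein genes (red) and the other 658 promoter peaks (grey). The bin from -50 to 0 bp holds 48.4% of these highest member peaks, and none of them lies below -200 or above 50 bp. Lower second peaks of members are not drawn.

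A summit can be near the starts of more than 1 gene. Of the 31 members, 18 had a highest peak that also lay within 500 bp of the start of another protein-coding gene, and 13 did not. The same count is not given for the other promoter peaks, so whether it is unusual cannot be told. The summit of RpL7 lay at -61 bp from the start of Ripalpha, and that of RpL14 at -77 bp from the start of Nelf-E, which encodes a subunit of the complex that holds paused RNA polymerase. The summit of RpL13 lay at -108 bp from the start of Dref, the gene of the factor that binds TATCGATA. Other neighbours were CG8132 (RpL34b), Nup37 (RpS27), NaCP60E (RpL41), CG7943 (RpL32), CG3776 (RpL19), CG3104 (RpS21), CG7130 (RpLP0), CG4294 (RpS16), Rok (RpS19a), CG4820 (RpS25), eIF1 (RpL28), CG13531 (RpL23), Trmt61 (RpL34a) and CG17271 (RpS20). Which of the genes a shared peak belongs to cannot be told apart in these lists. When each summit was assigned to its nearest protein-coding start alone, 30 members kept a peak, and RpS20 lost its peak to CG17271. Of the 35 members with a start on the opposite strand within 500 bp upstream, 17 (48.6%) had a promoter summit, against 13.0% of the 3597 protein-coding genes in that position. Of the 57 members with no such neighbour, 14 (24.6%) had one, against 4.37% of 10371 genes. Those 14 summits all lay within 100 bp of the start, with a median of -30 bp, against 24.8% and a median of -141 bp for the other 435 promoter peaks without a divergent neighbour. The median height was 125 in members with a divergent neighbour and 100.8 in members without.

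The summits of member peaks were lower in A and T than those of other promoter peaks. Within 50 bp of the summit, A and T made up 53.4% of bases at the 31 member peaks and 64.8% at the other 658 promoter peaks. By peak, members ran from 39.6% (RpL7 and RpL22) to 76.2% (RpS20), with a median of 51.5%, and the other peaks had a median of 66.3%. In flanks centred 500 bp from the same summits the shares were close, 52.5% for members and 55.2% for the others. Restricting both to summits within 100 bp of a start gave 52.0% in 29 member peaks and 62.9% in 231 others. Over the 100 bp before the start, whether or not a peak was there, A and T made up 56.2% in members and 58.5% in all protein-coding genes. From 250 bp before to 50 bp after the start the order was turned, with 62.4% in members and 60.7% in all protein-coding genes. The composition was not tested.

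**Figure D4:**
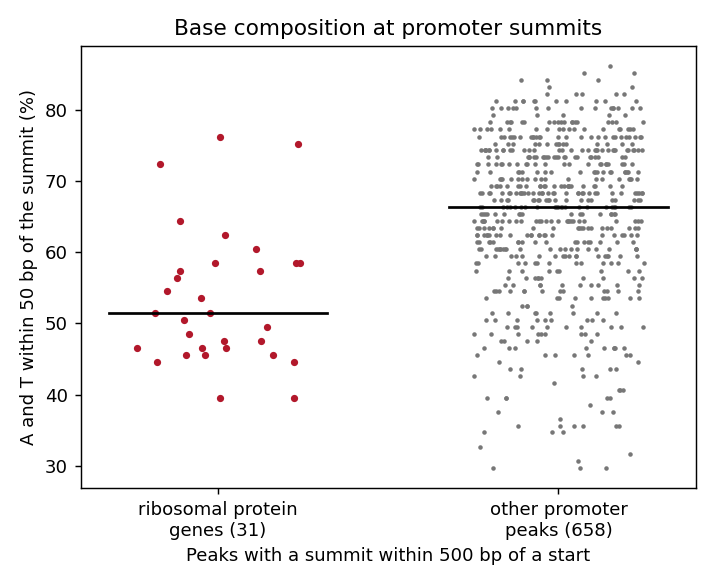
Percent of A and T within 50 bp of the summit (vertical axis) for the highest peak of the 31 ribosomal protein genes (red) and the other 658 promoter peaks (grey), 1 point a peak, with the median as a line and random sideways spread. Medians are 51.5% and 66.3%, and the ranges overlap.

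A small set of words was counted on both strands in the same windows. TATCGATA, which is its own reverse complement, was at the summit of 6 of 31 member peaks (19.4%) and of 11 of 658 other promoter peaks (1.67%), so members held 6 of the 17 such peaks. Within 100 bp of a start the shares were 20.7% of 29 and 3.90% of 231. The members were RpL41, RpL19, RpS10b, RpS7, RpS25 and RpS12, with the first base of the word between -88 and -7 bases from the start. GGTCACACT was at the summit of 4 member peaks (12.9%) and of 5 others (0.760%), and within 100 bp of a start in 13.8% of 29 and 2.16% of 231. The 4 members were RpL7, RpLP0, RpS23 and RpL27A. None of the 62 flank windows of member peaks held either word. Both were rare in the 1316 flank windows of the other peaks too, at 0.456% for TATCGATA and 0.228% for GGTCACACT. TTAAAA went the other way, with 3 of 31 member windows (9.68%) and 236 of 658 others (35.9%), as did TATAAA, with 3.23% and 23.4%. TATAAA is the TATA box word, but it was counted at any place in the window, whatever its distance from the start. GAGAG was in none of the 31 member windows and in 9.73% of the others. GATAA was in 29.0% and 21.9%, and within 100 bp of a start the shares were close, 24.1% of 29 and 22.9% of 231. It can overlap TATCGATA where that word is followed by A or preceded by T. With 31 peaks, 1 window is 3.23%, and no word was tested.

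The same words were counted in all member promoters, with or without a peak. In the stretch from 250 bp before to 50 bp after the main annotated start, TATCGATA was in 10 of 31 members with a pooled thresholded summit (32.3%), in 18 of 61 without (29.5%) and in 9.23% of all protein-coding promoters. CTTT with its C within 5 bases of the start, the TCT core, was found on the gene strand in 14 of 31 members with a summit (45.2%), in 30 of 61 without (49.2%) and in 5.63% of all genes. GGTCACACT was in 5 of 31 members with a summit (16.1%), in 4 of 61 without (6.56%) and in 6.06% of all promoters. The contrast at the summits was not seen over the whole promoter for TTAAAA, which was in 64.5% of the 31 members with a summit and in 60.3% of 890 other genes with one, or for TATAAA, which was in 45.2% and 46.2%. The main start is the one shared by most annotated transcripts of a gene, and a word that is missing there may be present at another start.

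Families with several genes were looked at one by one. Among the 92 genes, 13 families had more than 1 gene. In 1 of them, RpL34, every gene had a pooled thresholded promoter summit, with RpL34b at 254 and RpL34a at 82.7. In 7 only some genes did, and in 3 of these the gene without one has human and yeast counterparts that act in ribosome assembly (RpL7-like, RpL24-like and RpLP0-like). RpL22 had one while RpL22-like, a paralog expressed in the testis, had a highest candidate region of 45.0 below threshold. RpS10b and RpS19a had one, and their copies RpS10a (41.6) and RpS19b (37.6) did not. RpL7, RpL24 and RpLP0 had one, and RpL7-like (21.8), RpL24-like (40.9) and RpLP0-like (39.8) did not. RpS28b had one, whereas RpS28-like had a highest candidate region of 14.9 and RpS28a had none in its promoter. In the other 5 families no gene passed. The share with a summit was 33.3% of the 27 members in such families and 33.8% of the 65 single-copy members. How reads that match several copies were placed is not given in the sources used here, so values of near-identical copies such as RpS14a and RpS14b are uncertain.

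Of the remaining 61 members, 51 had a promoter candidate region that was not in the pooled thresholded list. In all, 82 of the 92 members (89.1%) had a promoter candidate region, against 79.6% of all protein-coding genes. In replicate 1 it was 57 (62.0%, against 59.5%) and in replicate 2 it was 82 (89.1%, against 80.9%). The highest promoter candidate region of a member had a median signal value of 56.9 over 82 genes, against 32.1 over 11039 other genes. Among genes with no thresholded promoter summit the medians were 38.7 over 51 members and 30.5 over 10149 other genes. In replicate 1 the medians over all genes with a candidate region were 20.6 and 13.3, and in replicate 2 they were 44.3 and 23.4.

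**Figure D5:**
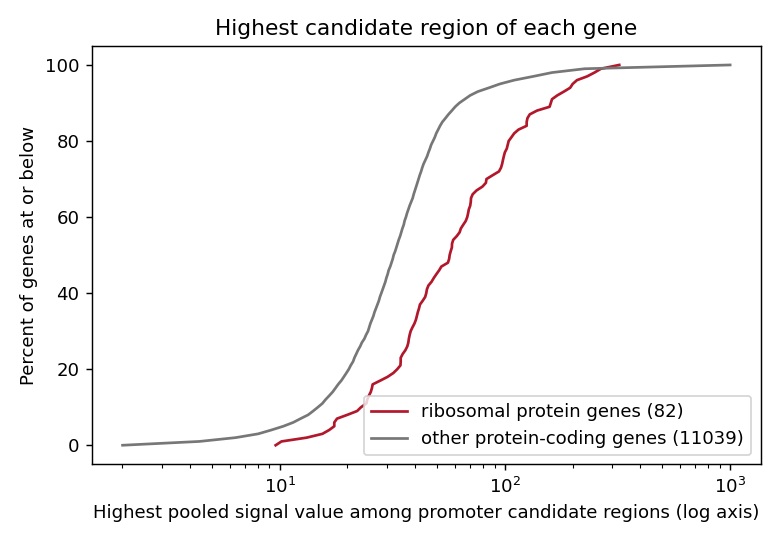
Percent of genes (vertical axis) whose highest promoter candidate region in the pooled ranked list has at most the signal value on the horizontal log axis, for 82 ribosomal protein genes (red) and 11039 other protein-coding genes (grey). The medians are 56.9 and 32.1.

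The highest of these candidates was at RpL13A, a large subunit gene with a summit at -49 bp. It had a pooled signal value of 160 and the full score of 1000, with 20.5 in replicate 1 and 138 in replicate 2, and the row was absent from the pooled thresholded list and from both replicates' own lists. In the whole pooled ranked list 169 of 1664 rows that reached the score minimum were absent in the same way, for a reason not given in the sources used here. RpL31 followed with 70.7 and a score of 826, just under the minimum of 830, while RpL13 at 56.7 passed with a score of 834. RpS5a had 70.2 and a score of 640. At the low end stood RpS15 with 9.61, RpL6 with 10.4 and RpS28-like with 14.9. RpS6, the target of S6 kinase, had 38.7, and RpL11, which enters the ribosome with 5S RNA, had 42.0. Of the 51, 30 (58.8%) had their summit within 100 bp of the start, against 24.1% of the 10149 other genes. In those 30 windows A and T made up 54.8% of bases and TATCGATA was in 20.0%, against 52.0% and 20.7% for the 29 member peaks that passed. GGTCACACT was in none of the 30, against 13.8% of the 29, and GAGAG was in 6.67%, against none of the 29.

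The last 10 members had no promoter candidate region in the pooled list. In 6 of them the nearest candidate summit was more than 4000 bp away. RpL10 on 3L (23093190 to 23095471), RpL15 on 3L (27267255 to 27268445), RpL21 on 2L (22247111 to 22247875) and RpL5 on 2L (22532279 to 22536884) lie towards the inner ends of arms of 28110227 and 23513712 bp, and their nearest candidate summits were 16173, 26430, 12136 and 20924 bp away. RpL38 on 2R (4515388 to 4516458) was 4167 bp from one, and RpS3A on chromosome 4 was 66717 bp from one. For the other 4, RpS28a, RpS13, RpL40 and RpL9, it was 538, 617, 716 and 2524 bp away. In the lists of the single replicates only RpL40 (19.0) and RpS28a (14.3) had a promoter candidate region, both in replicate 2.

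Other genes of the ribosome and of translation were counted in the same way. Of 42 such genes, which cover the ribosomal proteins sta and Rack1, elongation factors, ribosome assembly factors, RNA polymerase I, Myc and Tctp, 6 (14.3%) had a pooled thresholded promoter summit, against 6.59% of all protein-coding genes. They were eIF6 (615), which keeps the subunits apart, eEF1gamma (201), Ns2 (141), eEF1alpha1 (77.7), Rack1 (75.4), a protein of the small subunit, and eEF5 (68.2). Only the peak of eIF6 overlapped thresholded peaks of both replicates. Those of eEF1gamma, Ns2 and Rack1 did so for replicate 2 only, and those of eEF1alpha1 and eEF5 for neither. Rack1, eEF1gamma, eEF5 and eEF1alpha1 had summits at 17, -11, 26 and -43 bp from the start. For eIF6 and Ns2 the distances were -117 and -155 bp. The highest ribosomal protein peaks ranged from -179 to 31 bp, but the end at -179 bp was RpS20, and 29 of the 31 lay within 100 bp. eIF6 and Ns2 lay outside those 100 bp. For the other 658 promoter peaks the quartiles were -191 and -40 bp. sta had no promoter summit in the list.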

How the data were processed

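Peak lists on dm6 were used as deposited for 2 biological replicates and for both pooled. The signal value and the score are the authors' values as deposited. Candidate regions were ranked on irreproducible discovery rate, and replicates were pooled from filtered alignments, as the deposited file descriptions say. Neither the aligner, the caller nor the control is given in the sources used here, and the libraries the labels name as possible controls were not analysed here. Library depth is therefore unknown. From these lists, the summit (peak start plus offset) was compared with every annotated start of Ensembl release 115 within 500 bp (Python 3.11.15, pandas 2.3.3). Each replicate's height was read from its own candidate region that held the pooled summit. Overlaps needed 1 bp. Sequence came from RefSeq Release 6, and no listed peak ended beyond its arm. The matching step was tested on simulated data. The members, gene lists, words and naming rule were chosen with earlier results of these data known. Every member with a pooled thresholded promoter summit is named, except 1 that is counted but not reported here, with the 3 highest candidates below threshold. Other members were named after their values were seen. The symbols oho23B, eEF3, CG7637 and RpI1 of the translation list matched no gene name in the annotation, and Mat1, of the general factor TFIIH, was counted in it. No test was run, since there was 1 group.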

Additional observations from a re-analysis of the deposited data

How the results depend on the processing

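Outside the single-replicate lists, the count of 31 members, the median height and distance of the 34 member peaks and the count of members with a candidate region stayed within 1.5 times or within 1 SD of the peaks. The replicate lists made the main difference. With each replicate's own thresholded list in turn, the count of members ranged from 9 (without replicate 2) to 30 (without replicate 1), their share from 9.78% to 32.6%, and the share of all protein-coding genes from 2.69% to 5.70%. Without replicate 2 the median height was 53.4 and the median distance -87.0 bp, against 102 and -39.0 bp with both, and 57 members had a candidate region, against 82. Without replicate 1 these were 78.7, -39.5 bp and 82. The share of all genes was 4.17% in the conservative list and 4.32% among peaks at or above the median signal value, where 21 and 23 members were listed. Taking the ranked list at the score minimum in place of the thresholded list, added after the data were seen, gave 32 members. Single-copy members alone, also added then, gave 33.8%. Windows of 250 and 1000 bp gave 31 members each. Requiring 50% of the pooled peak to be covered left the count of member peaks overlapping both replicates at 10. The cause of the difference between replicates was not tested.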
